A study of Mus musculus with 15 samples.

Results

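Collagen chains are the products of the genes whose symbols read Col, a number, the letter a and a number. On the arrays of this series 43 such genes were measured, of 19500 genes with a symbol of their own. The rule reads the symbol of a gene and not its values. Only probe sets assigned to 1 symbol were used, and a gene with several was read from the brightest of them by its mean over the 15 arrays. That choice mattered only for Col6a5 and Col6a6, which bring the collagen probe sets to 45. Col7a1, the anchoring fibril chain, was not analysed here.

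The RNA came from cerebella of mice carrying Tg(Pcp2-L10a-Egfp), a transgene in which the promoter of the Purkinje cell gene Pcp2 drives ribosomal protein L10a fused to green fluorescent protein. Mice of every age carried it. The groups were P0, P7, P15, P21 and P56 (postnatal day 0, 7, 15, 21 and 56), with 3 arrays each, and no treatment is recorded. Cerebella were pooled, homogenised in the presence of cycloheximide, and the tagged ribosomes were pulled down with antibodies to the tag, a method called translating ribosome affinity purification (TRAP). Per the labels, the RNA on these ribosomes was then amplified and biotin-labelled for Affymetrix arrays. The amount of tagged ribosome at each age was not measured in the files used here, and neither whole cerebellum nor beads from mice without the transgene entered any comparison. No value here is therefore an enrichment over the tissue, and RNA that stuck to the beads from other cells cannot be told apart from Purkinje cell RNA by the purification itself.

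Collagens are proteins of the extracellular matrix built from chains that wind into triple helices. Fibrillar collagens form the cables of connective tissue, type IV chains form the sheet of basement membranes, and type VI chains form beaded filaments around cells. Other members sit on the surface of fibrils, span the cell membrane, or, as the multiplexins, carry chains of sugars and release signalling fragments. In the brain most fibrillar and type IV collagen is made by meningeal fibroblasts, endothelial cells and the mural cells that wrap vessels. Some chains are made by neurons, and Purkinje cells are a known source of collagen XVIII, whose terminal fragment, endostatin, acts in the formation of climbing fibre synapses on them.

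Of the 43 chains, Col18a1 had the largest change, and its signal rose 3.93-fold between P0 and P7. Over the same week 20 chains fell (46.5%, against 28.5% of all probe sets), among them those of types I and III and members of types IV and VI. A second set of small upward changes came between P21 and P56, in 23 chains (53.5%, against 22.1% of all probe sets). Promoter sequence is shown for Col18a1, the largest riser, and for Col1a2 and Col8a1, which had the largest falls from P0 to P7 among the chains with an entry in the RefSeq promoter table (GRCm38.p6). Col18a1 has a pair of entries there, and each line holds the 250 bases before a start site, 5′ to 3′ on the gene's strand. Capitals mark the box CCAAT and the box GGGCGG, a GC box of the kind bound by Sp factors, in either orientation, so that ATTGG and CCGCCC are the same boxes on the opposite strand.
Col18a1, start site 1 (chr10:77166531-77166780, minus strand): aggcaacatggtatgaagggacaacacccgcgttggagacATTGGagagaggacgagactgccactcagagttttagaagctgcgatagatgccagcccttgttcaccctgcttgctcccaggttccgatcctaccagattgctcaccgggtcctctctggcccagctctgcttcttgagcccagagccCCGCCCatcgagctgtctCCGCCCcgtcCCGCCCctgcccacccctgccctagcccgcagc
Col18a1, start site 2 (chr10:77113706-77113955, minus strand): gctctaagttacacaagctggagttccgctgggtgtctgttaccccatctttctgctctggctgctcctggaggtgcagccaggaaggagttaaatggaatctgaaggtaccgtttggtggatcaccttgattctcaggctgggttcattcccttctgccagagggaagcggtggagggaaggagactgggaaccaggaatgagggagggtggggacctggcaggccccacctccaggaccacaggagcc
Col1a2 (chr6:4505368-4505617, plus strand): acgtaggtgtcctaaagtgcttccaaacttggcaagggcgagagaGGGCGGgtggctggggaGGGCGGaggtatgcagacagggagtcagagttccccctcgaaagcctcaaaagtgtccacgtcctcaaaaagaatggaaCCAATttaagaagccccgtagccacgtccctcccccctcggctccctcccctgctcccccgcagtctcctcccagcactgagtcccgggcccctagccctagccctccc
Col8a1 (chr16:57754738-57754987, minus strand): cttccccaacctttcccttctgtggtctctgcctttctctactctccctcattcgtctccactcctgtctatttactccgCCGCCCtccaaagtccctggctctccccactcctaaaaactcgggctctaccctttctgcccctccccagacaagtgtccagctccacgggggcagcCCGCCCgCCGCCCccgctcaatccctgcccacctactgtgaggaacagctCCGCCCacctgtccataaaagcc

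Start site 1 of Col18a1 has 1 CCAAT box and 3 GC boxes in this window, and start site 2 holds neither motif. The Col1a2 window has 1 CCAAT box and 2 GC boxes, and that of Col8a1 has 4 GC boxes. The G and C content is 62.0% and 57.6% before the start sites of Col18a1, 62.0% for Col1a2 and 60.8% for Col8a1. Windows of the same kind, which end before the start site, were searched for 34 chains. GGGCGG in either orientation was found in 21 of their 37 windows (56.8%), against 32.7% of all 32851 windows. CCAAT was found in 12 (32.4% against 33.8%), TATAAA in 5 (13.5% against 12.4%) and AGGTCA, the half-site of many nuclear receptors such as RORα, in 7 (18.9% against 14.0%). Each motif was counted on its own, so that 1 base may belong to 2 motifs, and a match is only a run of letters. A probe set signal does not show which start site of Col18a1 was used.

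The deposited values were read as log2 signals, and a change below is a difference of log2 signals with its standard error (SE) from limma. A chain was called changed at a Benjamini-Hochberg adjusted p under 0.05 over all 22092 probe sets, and the standard deviation (SD) beside a mean is over 3 arrays. Whether the 3 arrays of each age represent different pools of animals is not stated, so the p-values may measure only technical spread. The mean correlation of an array with the others of its age was 0.9946 to 0.999 over all probe sets, and array medians lay between 7.59 and 7.93. Olfactory receptor probe sets, 1014 in number and for the most part silent in cerebellum, give a level near background, and their 95th percentile lay between 5.87 and 6.17. Each of the 43 chains had a mean above that percentile at every age, but 11 stayed within 1 log2 unit of it at all ages. Only 7 chains had a mean signal above that of the median probe set. Replicate 2 of P15 was the highest of its 3 arrays for 34 of the 43 chains and replicate 2 of P21 for 39, and the results that touch these ages are given with and without them. The purified material carried Purkinje cell markers at every age, more so from P7 on: the mean over 12 such markers was 9.50 to 9.54 at P0 and 12.90 to 12.93 at P7. Pcp2 itself, the gene whose promoter drives the tag, read 8.53 ± 0.07 at P0 and 13.16 ± 0.01 at P7 (SD, n = 3).

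Between P0 and P7, 20 of the 43 chains fell and 3 rose, and 20 were not called. Over all probe sets 28.5% were called lower and 33.6% higher in this step, and of the chains 46.5% were called lower and 6.98% higher. Under quantile normalisation the chains split into 8 higher and 17 lower (33.5% and 29.7% of all probe sets), with array medians set to 0 into 6 and 17 (38.4% and 26.1%). Their median change was −0.19, against 0.05 over all probe sets. Falls of at least 1 log2 unit were found for 4 chains (Col8a1, Col12a1, Col1a2 and Col4a2; 9.25% of all probe sets), and a rise of that size only for Col18a1 (10.5%). Between P7 and P21 few chains were called. From P21 to P56, 23 rose and 4 fell, against 22.1% and 34.3% of all probe sets, with a median of 0.23 against −0.03. Over all ages, limma's moderated F-test called 38 of the 43 chains (88.4%), where it called 81.6% of all probe sets. The 5 chains it did not call were Col2a1, Col5a1, Col22a1, Col4a3 and Col4a6.

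**Figure D1:**
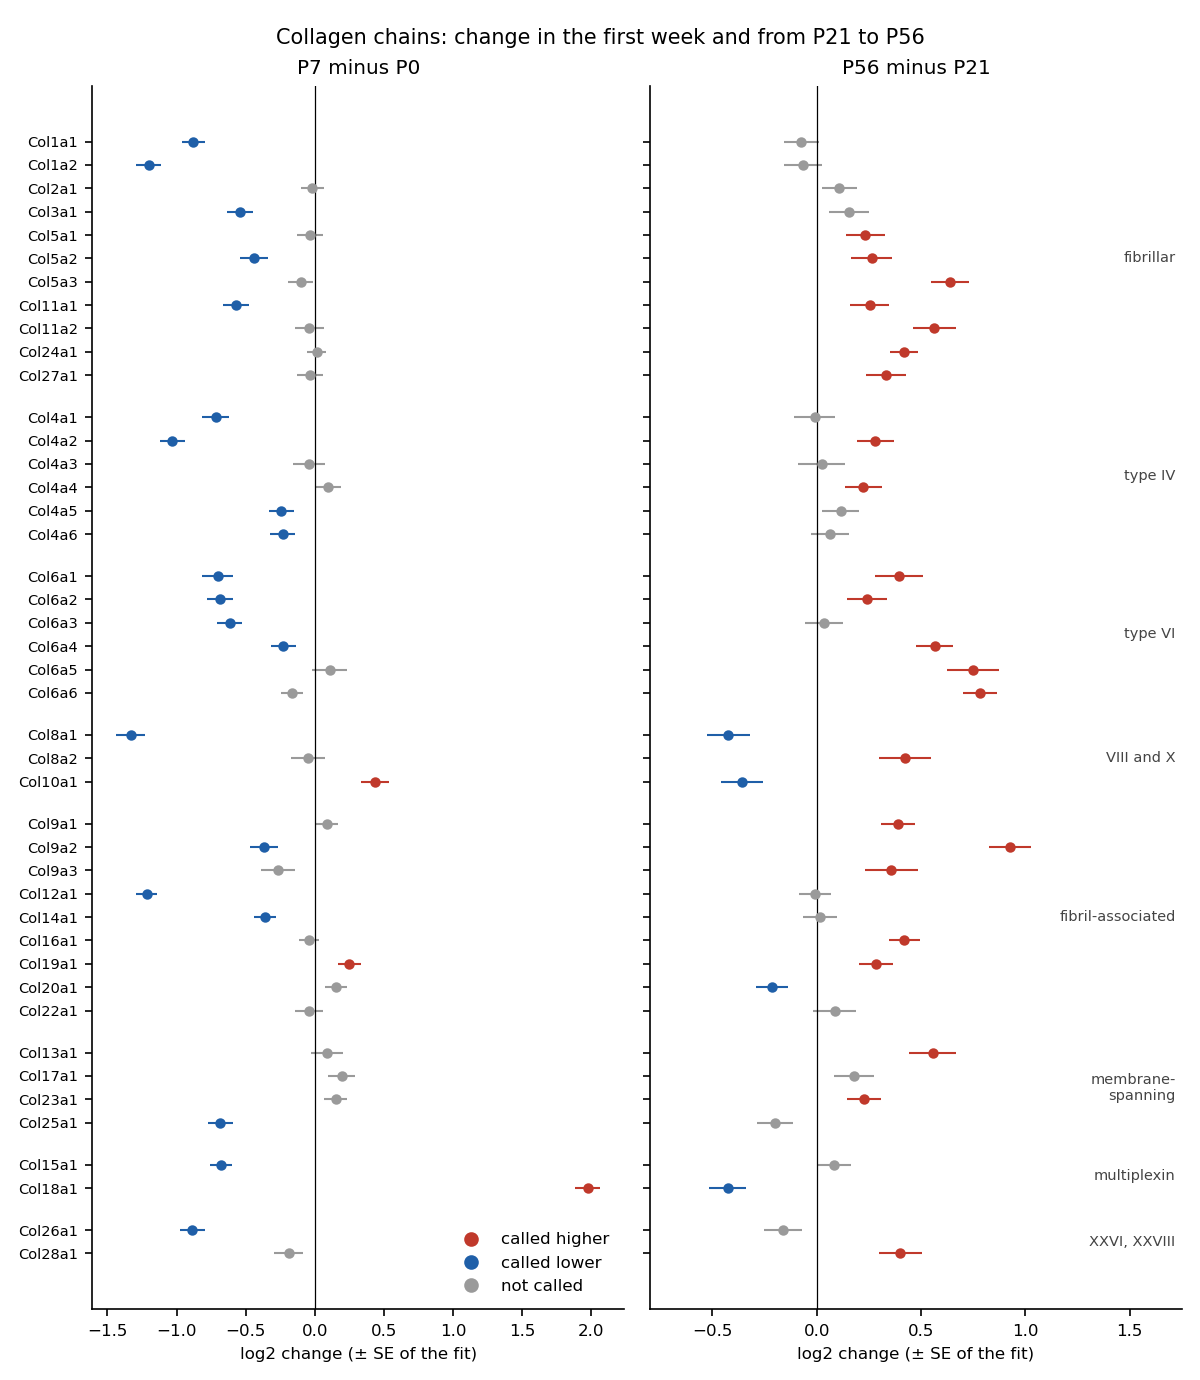
Log2 change with its SE from limma for each of the 43 collagen chains, grouped by class, from P0 to P7 and from P21 to P56; red marks chains called higher, blue those called lower and grey those not called. In the first step 20 points are blue and 3 red, with Col18a1 far to the right at 1.98, and in the second 23 are red and 4 blue.

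Col18a1 (probe set 10370259) encodes the chain of collagen XVIII, a heparan sulphate proteoglycan of basement membranes and the precursor of endostatin. Its arrays read 7.56, 7.32 and 7.53 at P0, 9.40, 9.48 and 9.47 at P7, 9.88, 9.97 and 9.81 at P15, 9.69, 9.74 and 9.92 at P21, and 9.53, 9.25 and 9.28 at P56. The P0 arrays lay far below those of every later age, the P15 arrays above those of P7, and the P56 arrays below those of P21 and level with those of P7. The change from P0 to P7 was 1.98 (SE 0.09, limma adjusted p 2.19e-12). It rose again by 0.44 (SE 0.09, limma adjusted p 0.00162) to P15, a 1.36-fold change, and from P21 to P56 it fell, with a change of −0.43 (SE 0.09, limma adjusted p 0.000615). With quantile normalisation that last change was −0.18 and with array medians set to 0 it was −0.19, and neither was called. Under the same 2 scalings the first-week rise was 2.04 and 2.03, and with olfactory receptor medians set equal 1.93. All 12 Purkinje cell markers rose in the same step, by a median of 2.76, and their part in the Col18a1 rise was not tested. Collagen XV, the other multiplexin, went the other way: Col15a1 fell from 7.65 ± 0.13 to 6.97 ± 0.05 (SD, n = 3), a change of −0.68 (SE 0.08, limma adjusted p 7.17e-07).

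Fibrillar chains had 5 of 11 members called lower from P0 to P7 and none higher, with a median change of −0.10. The share lower was 45.5%, against 28.5% of all probe sets. Col1a1 and Col1a2 encode the chains of type I collagen, the main fibril of skin, bone and meninges. The Col1a1 arrays (probe set 10380419) read 8.98, 8.81 and 9.09 at P0, 8.03, 8.06 and 8.15 at P7, 7.80, 8.02 and 8.0 at P15, 8.09, 8.32 and 8.21 at P21, and 8.15, 8.15 and 8.08 at P56. For Col1a2 (probe set 10536220) the readings were 8.98, 9.10 and 8.92 at P0, 7.78, 7.81 and 7.81 at P7, 7.65, 7.91 and 7.82 at P15, 7.88, 8.10 and 7.93 at P21, and 8.08, 7.79 and 7.84 at P56. In both genes the P0 arrays stood above all 12 later arrays, which spanned 7.80 to 8.32 for Col1a1 and 7.65 to 8.10 for Col1a2. The first-week change was −0.88 (SE 0.08, limma adjusted p 5.53e-08) for Col1a1 and −1.20 (SE 0.09, limma adjusted p 1.7e-09) for Col1a2, or 1.84-fold and 2.3-fold lower. Col3a1 encodes type III collagen, which is found with type I in soft tissue and around vessels and is a ligand of the receptor Adgrg1. It read 7.93, 8.0 and 8.19 at P0, 7.46, 7.55 and 7.50 at P7, 7.27, 7.55 and 7.56 at P15, 7.39, 7.57 and 7.44 at P21, and 7.79, 7.52 and 7.56 at P56. Its P0 arrays too were the highest, but by less: the change was −0.54 (SE 0.09, limma adjusted p 7.09e-05). Col5a2 (−0.44, SE 0.10) and Col11a1 (−0.57, SE 0.10), chains of the minor fibrillar collagens that nucleate fibrils, were the other 2 called lower. The remaining 6, Col2a1, Col5a1, Col5a3, Col11a2, Col24a1 and Col27a1, lay between −0.10 and 0.01 and were not called.

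Of the type IV chains, 4 of 6 were called lower from P0 to P7 and none higher, with a median change of −0.24. The share lower was 66.7%, against 28.5% of all probe sets. Col4a1 and Col4a2 encode the pair of chains that build the basement membrane of most vessels. The arrays of Col4a1 (probe set 10576973) gave 7.72, 7.80 and 7.95 at P0, 7.12, 7.05 and 7.14 at P7, 6.96, 7.21 and 7.14 at P15, 7.06, 7.31 and 7.21 at P21, and 7.36, 6.99 and 7.20 at P56. Those of Col4a2 (probe set 10570068) gave 8.29, 8.42 and 8.40 at P0, 7.31, 7.36 and 7.34 at P7, 7.03, 7.42 and 7.29 at P15, 7.19, 7.42 and 7.28 at P21, and 7.67, 7.56 and 7.51 at P56. The P0 arrays of both lay above every later array, and the arrays from P7 to P21 overlapped one another. The first-week change was −0.72 (SE 0.10, limma adjusted p 4.46e-06) for Col4a1 and −1.03 (SE 0.09, limma adjusted p 1.43e-08) for Col4a2. Col4a5 and Col4a6, chains of other basement membranes, fell by less, with changes of −0.24 (SE 0.09, limma adjusted p 0.0257) and −0.23 (SE 0.09, limma adjusted p 0.0347). Both calls were lost with quantile normalisation and with array medians set to 0. Leaving out single arrays ended the call of Col4a5 without P0 replicate 3, P7 replicate 1 or P7 replicate 2 (−0.24 to −0.18) and of Col4a6 without P0 replicate 1, P7 replicate 1 or P7 replicate 2 (−0.23 to −0.15). Col4a3 and Col4a4, which are known from kidney, were not called, at −0.04 (SE 0.11) and 0.10 (SE 0.09).

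Of the type VI chains, too, 4 of 6 (66.7%, against 28.5% of all probe sets) were called lower and none higher (median −0.42). Col6a1, Col6a2 and Col6a3 encode the chains of the common type VI trimer and changed by −0.70 (SE 0.11), −0.69 (SE 0.10) and −0.61 (SE 0.09), with limma adjusted p of 2.98e-05, 6.03e-06 and 1.11e-05. Their means went from 8.13 ± 0.08, 8.30 ± 0.12 and 7.43 ± 0.05 at P0 to 7.43 ± 0.03, 7.62 ± 0.0037 and 6.81 ± 0.04 at P7 (SD, n = 3). Col6a4 was called lower at −0.23 (SE 0.09), a call that was lost with quantile normalisation (−0.11), with array medians set to 0 (−0.17) and without P0 replicate 1 (−0.21), P0 replicate 3 (−0.22) or P7 replicate 2 (−0.16). Col6a5 and Col6a6, which can take the place of Col6a3 in the trimer, were not called.

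Col8a1 and Col12a1 had the largest first-week falls. Col8a1 encodes a short chain that forms hexagonal lattices beneath endothelia. The Col8a1 arrays (probe set 10440091) read 8.12, 7.93 and 8.09 at P0, 6.58, 6.89 and 6.67 at P7, 6.82, 6.82 and 6.66 at P15, 6.96, 7.05 and 7.20 at P21, and 6.52, 6.88 and 6.54 at P56. Again the P0 arrays were highest without overlap, and the change was −1.33 (SE 0.10, limma adjusted p 3.28e-09), or 2.52-fold lower. Col12a1 encodes a chain that coats type I fibrils in dense connective tissue, and it read 7.37, 7.60 and 7.68 at P0, 6.25, 6.34 and 6.43 at P7, 6.48, 6.51 and 6.51 at P15, 6.40, 6.34 and 6.42 at P21, and 6.39, 6.33 and 6.42 at P56. After P0 its arrays spanned only 6.25 to 6.51, and the change to P7 was −1.22 (SE 0.08, limma adjusted p 1.75e-10). Among the other fibril-associated chains Col14a1 (−0.36, SE 0.08) and Col9a2 (−0.37, SE 0.10) were called lower, and Col9a3 (−0.27, SE 0.12), Col9a1, Col16a1, Col20a1 and Col22a1 were not called.

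Col26a1 encodes a short collagen that is little studied, and it was the one chain that fell in 2 successive steps. It read 9.23, 9.26 and 9.32 at P0, 8.47, 8.34 and 8.34 at P7, 7.98, 8.05 and 7.92 at P15, 7.71, 8.11 and 7.84 at P21, and 7.61, 7.79 and 7.79 at P56 (probe set 10534640). The arrays of P0, P7 and P15 formed separate, descending groups, and those of P21 and P56 overlapped. The step from P0 to P7 was −0.89 (SE 0.09, limma adjusted p 1.08e-07) and that from P7 to P15 was −0.40 (SE 0.09, limma adjusted p 0.00337). From P7 to P56 the change was −0.65 (SE 0.09, limma adjusted p 7.55e-06). Among the membrane-spanning chains Col25a1, a collagen of neurons that is cut into a soluble form and is needed by motor axons, fell by 0.68 (SE 0.09) in the first week, from 7.76 ± 0.13 to 7.08 ± 0.04 (SD, n = 3), while Col13a1, Col17a1 and Col23a1 were not called.

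Besides Col18a1, Col10a1 and Col19a1 rose in the first week. Col10a1 encodes the chain of type X collagen, known from growing cartilage, and the arrays gave 6.36, 6.25 and 6.40 at P0, 6.74, 6.79 and 6.79 at P7, 7.06, 7.0 and 7.08 at P15, 6.83, 6.89 and 6.79 at P21, and 6.17, 6.56 and 6.71 at P56. Its arrays climbed without overlap from P0 to P7 and on to P15, and at P56 they lay below those of every age from P7 to P21. The change was 0.44 (SE 0.10, limma adjusted p 0.000947) from P0 to P7, 0.27 (SE 0.10, limma adjusted p 0.0602) from P7 to P15, and −0.36 (SE 0.10, limma adjusted p 0.00578) from P21 to P56. Col19a1 is made by some neurons of the forebrain, where a fragment of it acts on inhibitory synapses. It read 6.16, 6.09 and 6.33 at P0, 6.42, 6.42 and 6.50 at P7, 6.35, 6.46 and 6.45 at P15, 6.27, 6.51 and 6.32 at P21, and 6.73, 6.69 and 6.52 at P56. Its first-week change was 0.25 (SE 0.08, limma adjusted p 0.0137), and it was not called without P0 replicate 2 (0.20) or without P7 replicate 3 (0.22).

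**Figure D2:**
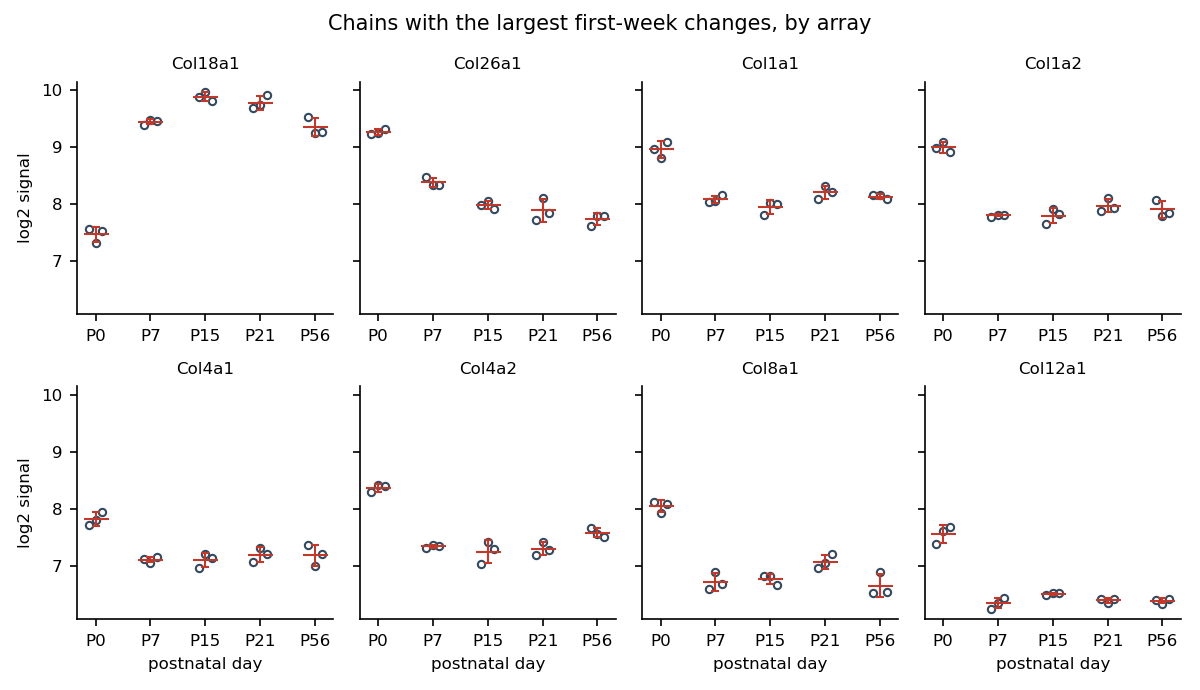
Log2 signal of each array (open circles) with the mean ± SD of 3 arrays (red) at P0, P7, P15, P21 and P56, for the 8 chains with the largest change from P0 to P7. Col18a1 climbs from 7.47 to 9.45, and in the other 7 panels the P0 arrays are above all later arrays.

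Markers of the cells that make most brain collagen were lower at P7 than at P0 in the same arrays. Of all probe sets 28.5% were called lower and 33.6% higher in this step. Endothelial markers fell in 13 of 13 genes (median change −1.70). The mean over the list lay at 8.40 to 8.47 over the P0 arrays and at 6.76 to 6.82 over those of P7. Mural cell markers fell in 9 of 11 (median change −0.86, list mean 8.20 to 8.25, then 7.23). Meningeal fibroblast markers fell in 13 of 15 and rose in 1 (median change −1.78, list mean 9.08 to 9.12, then 7.48 to 7.54). Markers of choroid plexus fell in 5 of 7, of microglia in 9 of 10, and of astrocytes and Bergmann glia in 7 of 11, with 1, 1 and 3 rising. Oligodendrocyte markers rose in 8 of 12 and fell in 4, and markers of granule cells and their progenitors rose in 6 of 10 and fell in 3. The shares that fell, 33.3% of the oligodendrocyte and 30% of the granule cell markers, lay near the 28.5% of all probe sets. The list means of endothelial, mural and meningeal markers stayed above the 95th percentile of the olfactory receptors at every age. Single markers that were under it at P7 were Tek and Slco1a4 of endothelium, Higd1b of mural cells, which was under it at all ages, and Lum and Ogn of meningeal fibroblasts. At P56 Emcn, Kdr and Erg of endothelium were under it too. The part of these cells in the falls of the collagens was not tested. In such bulk RNA, fewer cells of a type and less RNA per cell cannot be told apart.

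**Figure D3:**
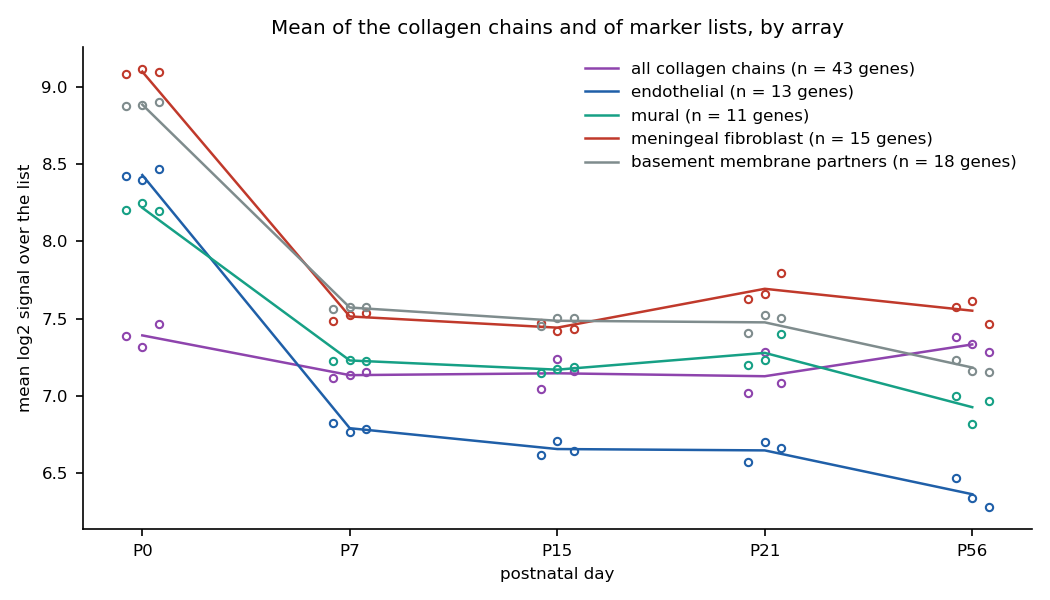
Mean log2 signal over the genes of a list, 1 point for each of the 15 arrays by age, for the 43 collagen chains, 13 endothelial markers, 11 mural markers, 15 meningeal fibroblast markers and 18 basement membrane partners. The 3 marker lists and the partners drop from P0 to P7 by more than the collagen mean, which goes from 7.39 to 7.13.

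The steps from P7 to P15 and from P15 to P21 held few calls. From P7 to P15, Col18a1 rose and Col26a1 fell and the other 41 chains were not called, where 10.4% of all probe sets were called higher and 13.6% lower. From P15 to P21 only Col1a1 was called, with a change of 0.26 (SE 0.08, limma adjusted p 0.0405), and 0 chains were called lower (10.5% and 7.16% of all probe sets). That call was lost under quantile normalisation, with array medians set to 0, and for Col1a1 without any 1 of 8 arrays (0.19 to 0.30). Without P15 replicate 2 the counts of both steps were the same, and without P21 replicate 2 the step from P15 to P21 had 0 rises and 2 falls, Col4a5 (−0.30) and Col6a5 (−0.32). The mean over the 43 chains was 7.04 to 7.24 over the P15 arrays and 7.02 to 7.28 over those of P21, so the arrays of an age spread over more than the distance between the ages.

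From P21 to P56 each of the 23 rises was under 1 log2 unit. The largest was that of Col9a2, a chain of type IX collagen, which lies on cartilage fibrils. Its arrays (probe set 10507742) read 8.01, 7.99 and 8.21 at P0, 7.67, 7.66 and 7.78 at P7, 7.55, 7.95 and 7.62 at P15, 7.42, 7.73 and 7.50 at P21, and 8.54, 8.43 and 8.44 at P56. The P56 arrays were above all 12 others, and the P0 arrays above those of P7. The change from P21 to P56 was 0.93 (SE 0.10, limma adjusted p 6.12e-07), or 1.9-fold. The partner chains Col9a1 and Col9a3 also rose, by 0.39 and 0.36.

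Type VI chains rose in 5 of 6 cases (median 0.48), with Col6a3 not called (0.04, SE 0.09). The share higher was 83.3%, against 22.1% of all probe sets. For Col6a6 (probe set 10596383) the arrays read 7.58, 7.40 and 7.52 at P0, 7.34, 7.37 and 7.30 at P7, 7.24, 7.46 and 7.38 at P15, 7.19, 7.46 and 7.21 at P21, and 8.07, 8.09 and 8.05 at P56. For Col6a5 (probe set 10596409) they read 6.39, 6.36 and 6.47 at P0, 6.52, 6.51 and 6.51 at P7, 6.40, 6.62 and 6.50 at P15, 6.26, 6.83 and 6.10 at P21, and 7.18, 7.11 and 7.15 at P56. In both genes the P56 arrays were within 0.1 of one another and above all others, while the P21 arrays of Col6a5 spread from 6.10 to 6.83. The changes were 0.78 (SE 0.08, limma adjusted p 2.9e-07) and 0.75 (SE 0.13, limma adjusted p 7.29e-05). Each of the pair has a second probe set. That of Col6a6 had means of 5.74 to 5.85 from P0 to P21, under the 95th percentile of the olfactory receptors, and of 6.33 at P56, above it. That of Col6a5 had means of 5.30 to 5.56 over the ages, under the 95th percentile of the olfactory receptors, and so gives no second reading of the gene.

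Fibrillar chains rose in 7 of 11 cases (63.6%, against 22.1% of all probe sets) and fell in none (median 0.25). Col11a2 and Col5a3, minor fibrillar chains, led. Col11a2 read 7.51, 7.41 and 7.45 at P0, 7.35, 7.51 and 7.40 at P7, 7.39, 7.60 and 7.51 at P15, 7.23, 7.69 and 7.35 at P21, and 8.12, 7.86 and 7.97 at P56. Col5a3 read 7.05, 7.02 and 7.21 at P0, 6.96, 6.98 and 7.03 at P7, 6.88, 7.15 and 7.04 at P15, 6.85, 7.18 and 6.86 at P21, and 7.60, 7.61 and 7.59 at P56. In both the P56 arrays lay above all others, and the changes from P21 were 0.56 (SE 0.10, limma adjusted p 0.000155) and 0.64 (SE 0.09, limma adjusted p 1.06e-05). Col24a1 (0.42), Col27a1 (0.33), Col5a2 (0.26), Col11a1 (0.25) and Col5a1 (0.23) were also called higher. Col1a1, Col1a2 and Col3a1, which make the bulk of fibrils in most tissues, were not called, at −0.07 (SE 0.08), −0.07 (SE 0.09) and 0.15 (SE 0.09), nor was Col2a1.

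Col13a1, a membrane-spanning chain that takes part in the upkeep of the neuromuscular junction, read 7.08, 6.85 and 7.17 at P0, 7.17, 7.05 and 7.15 at P7, 7.03, 7.30 and 7.21 at P15, 6.93, 7.34 and 7.06 at P21, and 7.83, 7.48 and 7.67 at P56. Its P56 arrays were again the highest and its change from P21 was 0.56 (SE 0.11, limma adjusted p 0.000488). Of the other membrane-spanning chains, Col23a1 rose by 0.23, and Col17a1 and Col25a1 were not called. Of the fibril-associated chains, Col16a1 (0.42) and Col19a1 (0.28) rose beside those of type IX, and Col20a1 fell (−0.21, SE 0.08, limma adjusted p 0.028). Type IV chains rose in 2 of 6 cases (33.3%, near the 22.1% of all probe sets), Col4a2 (0.28) and Col4a4 (0.22). Col8a2 (0.42) and Col28a1 (0.40), a chain found along nerves, rose as well. The 4 falls were those of Col18a1, Col8a1 (−0.42, SE 0.10, limma adjusted p 0.00221), Col10a1 and Col20a1.

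**Figure D4:**
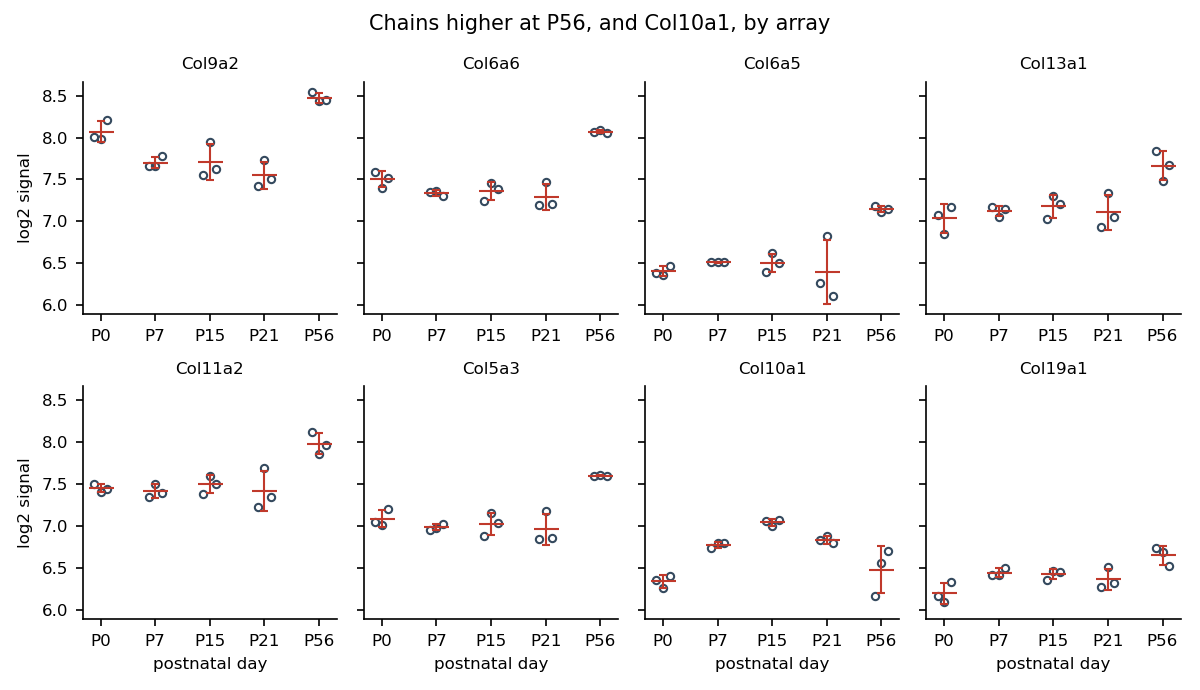
Log2 signal of each array (open circles) with the mean ± SD of 3 arrays (red) by age for Col9a2, Col6a6, Col6a5, Col13a1, Col11a2, Col5a3, Col10a1 and Col19a1. In 7 panels the P56 arrays are the highest, by a wide margin in Col6a6 and Col5a3 and by a narrow one in Col19a1, and Col10a1 peaks at P15 and is low at P56.

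The rises from P21 to P56 depended on how the arrays were set level. Olfactory receptor probe sets shifted upward in the same step, by a median of 0.10, and 77% of the 1014 were above 0, while the array medians were lowest at P56. With olfactory receptor medians set equal, 14 chains rose and 7 fell (13.6% and 42.8% of all probe sets). The calls of Col11a1, Col19a1, Col23a1, Col4a2, Col4a4, Col5a1, Col5a2, Col6a2 and Col9a3 were then lost. Quantile normalisation gave 28 rises and 2 falls (27.5% and 27.5% of all probe sets). With array medians set to 0 there were 33 rises and 0 falls (49.9% and 22.3% of all probe sets). The median change of all probe sets then moved from −0.03 to 0.21. Without P21 replicate 1, 14 chains rose and 6 fell, and without P21 replicate 2, the array that stood high for most chains, 23 rose and 3 fell. Relative to the olfactory receptors, Col9a2 (0.81), Col6a6 (0.67), Col6a5 (0.64), Col5a3 (0.53), Col11a2 (0.45) and Col13a1 (0.44) were still called higher. Over the same step, markers of endothelium fell in 7 of 13 genes and of mural cells in 5 of 11, with 0 rising in either. Markers of meningeal fibroblasts fell in 6 of 15 and rose in 3. Of all probe sets 34.3% were called lower and 22.1% higher. The mural share (45.5% lower) and the meningeal shares (40% lower, 20% higher) lay near those. Oligodendrocyte markers fell in 11 of 12. At P56 the mean over 7 choroid plexus markers was 9.0 in replicate 2 against 7.90 and 8.02 in the others, and its part was not tested.

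Of the chains called from P21 to P56, 10 lost the call without at least 1 array, and each of them had a change under 0.5. Among the fibrillar chains this held for Col11a1 without P21 replicate 1, P21 replicate 3, P56 replicate 1 or P56 replicate 3 (0.19 to 0.25), Col5a1 without any 1 of 9 arrays (0.16 to 0.24) and Col5a2 without P21 replicate 1, P21 replicate 3, P56 replicate 1 or P56 replicate 3 (0.21 to 0.25). Of the type IV chains it held for Col4a2 without P21 replicate 1 or P56 replicate 1 (0.23 to 0.24) and Col4a4 without P21 replicate 1, P21 replicate 3, P56 replicate 1 or P56 replicate 2 (0.16 to 0.21). Of the other classes it held for Col6a2 without any 1 of 8 arrays (0.12 to 0.24), Col8a2 without P21 replicate 1 or P56 replicate 2 (0.27 to 0.30) and Col23a1 without P21 replicate 1, P21 replicate 2, P21 replicate 3 or P56 replicate 3 (0.17 to 0.23). The fibril-associated chains concerned were Col9a3 without P21 replicate 1, P21 replicate 3, P56 replicate 1 or P56 replicate 2 (0.27 to 0.36) and Col20a1 without P21 replicate 2, P21 replicate 3, P56 replicate 1 or P56 replicate 2 (−0.20 to −0.18). Col9a2, Col6a6, Col6a5, Col5a3, Col11a2 and Col13a1 kept their calls without each single array.

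**Figure D5:**
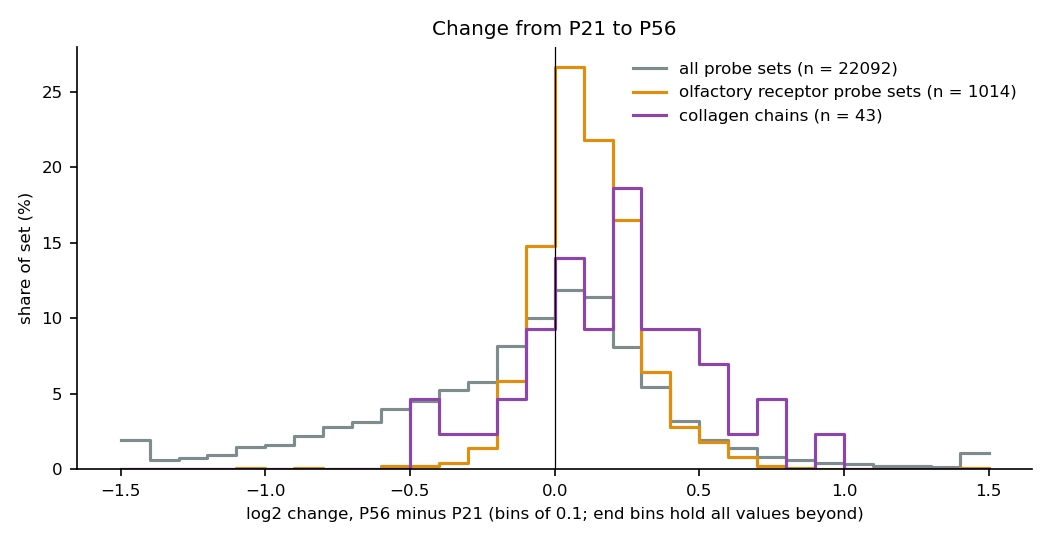
Share of probe sets by log2 change from P21 to P56, in bins of 0.1, for all 22092 probe sets, the 1014 olfactory receptor probe sets and the 43 collagen chains. The olfactory receptors centre at 0.10 and the collagens at 0.23, both to the right of all probe sets at −0.03.

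In 16 of the 43, all P0 arrays lay above the 12 arrays of later ages (23.2% of all probe sets did so). They were Col1a1, Col1a2, Col3a1, Col5a2, Col11a1, Col4a1, Col4a2, Col6a1, Col6a2, Col6a3, Col8a1, Col12a1, Col14a1, Col15a1, Col25a1 and Col26a1. In 12 others all P56 arrays lay above the 12 of earlier ages (12.5% of all probe sets): Col5a3, Col11a2, Col24a1, Col27a1, Col6a4, Col6a5, Col6a6, Col9a1, Col9a2, Col16a1, Col19a1 and Col13a1.

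Between P0 and P56, 18 chains were called higher and 17 lower (41.9% and 39.5%). These shares lay near the 40.1% and 35.3% of all probe sets. The median change was 0.07, against 0.08 over all probe sets. This comparison shares its P0 arrays with the first-week comparison and its P56 arrays with the last, so its values are set beside them only to give the size of the net change. The largest rises were those of Col18a1 (1.88, SE 0.09, limma adjusted p 2.4e-12), Col6a5 (0.74), Col13a1 (0.63), Col6a6 (0.57), Col11a2 (0.53) and Col5a3 (0.51). The largest falls were those of Col26a1 (−1.54, SE 0.09, limma adjusted p 4.06e-11), Col8a1 (−1.40), Col12a1 (−1.17), Col1a2 (−1.09), Col1a1 (−0.83) and Col4a2 (−0.79). Only Col18a1 among the rises (11% of all probe sets) and Col26a1, Col8a1, Col12a1 and Col1a2 among the falls (16%) reached 1 log2 unit. Olfactory receptors rose by a median of 0.19 here, and with their medians set equal 9 chains were higher and 19 lower (25.7% and 44.2% of all probe sets). With array medians set to 0 the counts were 26 and 11 (61.7% and 26.3% of all probe sets). With quantile normalisation they were 23 and 13 (39.6% and 33.9%). With olfactory receptor medians set equal and with array medians set to 0, the chain counts moved in the same direction as these shares. With quantile normalisation the chains called higher went from 18 to 23, while the share of all probe sets went from 40.1% to 39.6%. Leaving out single arrays ended the calls of Col28a1 without any 1 of 8 arrays (0.14 to 0.24), Col4a5 without P0 replicate 3 (−0.22), Col5a2 without P0 replicate 3 or P56 replicate 2 (−0.23 to −0.20) and Col8a2 without P56 replicate 2 (0.23). Col3a1 changed by −0.42 (SE 0.09, limma adjusted p 0.000668) from P0 to P56 and lost its call under quantile normalisation and with array medians set to 0 (−0.10 in both). So did Col6a1 (−0.24 and −0.24), Col11a1 (−0.19 and −0.14) and Col5a2 (−0.18 and 0.038). Col14a1 (−0.03) and Col4a5 (0.039) lost theirs with array medians set to 0. Between P7 and P56, 17 chains rose (25.4% of all probe sets) and 2 fell (34.2%), Col26a1 and Col10a1. Quantile normalisation gave 30 and 2 (29% and 27.6% of all probe sets) and array medians set to 0 gave 38 and 1 (55.6% and 21.8%). Olfactory receptor medians set equal gave 12 and 5 (13.4% and 44.5%). Single arrays mattered for Col19a1 without P7 replicate 1, P7 replicate 2, P56 replicate 1 or P56 replicate 2 (0.16 to 0.19), Col4a2 without P7 replicate 1, P7 replicate 2, P7 replicate 3 or P56 replicate 1 (0.20 to 0.25), Col4a4 without any 1 of 10 arrays (0.16 to 0.21) and Col4a6 without P7 replicate 1, P7 replicate 2, P56 replicate 1 or P56 replicate 2 (0.15 to 0.24), and the fall of Col10a1 lost its call without P56 replicate 1 (−0.14).

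Several collagen genes lie next to each other with no other protein-coding gene between them in the RefSeq annotation. The neighbours Col4a1 and Col4a2, whose starts lie 21 bases apart on opposite strands, both fell in the first week (−0.72 and −1.03). So did Col6a1 and Col6a2 (−0.70 and −0.69), Col3a1 and Col5a2 (−0.54 and −0.44), and Col4a5 and Col4a6 (−0.24 and −0.23), whose starts are 1343 bases apart. The neighbours Col6a4, Col6a5 and Col6a6 were all higher at P56 than at P0 (0.34, 0.74 and 0.57), as were Col9a1 and Col19a1 (0.37 and 0.46). With olfactory receptor medians set equal, the calls of Col6a4 (0.14) and Col9a1 (0.17) were lost. Of Col4a3 (0.11) and Col4a4 (0.31), the second was called. With olfactory receptor medians set equal neither was called (−0.09 and 0.11), and with array medians set to 0 both were (0.43 and 0.63). In the first week Col6a4 was called lower (−0.23), while Col6a5 (0.11) and Col6a6 (−0.17) were not called. Col19a1 was called higher (0.25) and Col9a1 (0.09) was not called. From P0 to P56 Col4a5 was called lower (−0.28) and Col4a6 (0.0007) was not called. The other 3 pairs that fell in the first week were also called lower from P0 to P56. Whether neighbours change together was not tested.

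Of 21 genes for hydroxylation, folding and secretion, 14 fell and 2 rose from P0 to P7 and 17 fell and 2 rose from P0 to P56, with medians of −0.40 and −1.01. Over all probe sets 28.5% were called lower and 33.6% higher from P0 to P7, and 35.3% and 40.1% from P0 to P56. The largest falls to P56 were in P4ha3, a prolyl hydroxylase subunit (−3.0, SE 0.08, limma adjusted p 8.25e-16), the lysyl hydroxylases Plod3 (−2.39) and Plod2 (−2.38), and P3h3 (−1.81). Serpinh1, the chaperone that binds folded collagen in the endoplasmic reticulum, read 8.27 ± 0.18 at P0, 7.35 ± 0.11 at P7 and 7.06 ± 0.05 at P56 (SD, n = 3), a first-week change of −0.92 (SE 0.10, limma adjusted p 1.81e-07). From P21 to P56, where 23 collagen chains rose, 15 of these 21 genes fell and 0 rose, where 34.3% of all probe sets were called lower and 22.1% higher. Among 11 genes for procollagen cleavage and crosslinking, 5 fell and 2 rose from P0 to P56 (median −0.20), or 45.5% lower, near the 35.3% of all probe sets. The largest falls were in Bmp1, the procollagen C-proteinase (−2.0, SE 0.09, limma adjusted p 5.45e-13), its enhancer Pcolce (−1.61), and the lysyl oxidase relatives Loxl1 (−1.07) and Loxl3 (−0.98).

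Of 10 collagen receptors, 8 fell and 1 rose from P0 to P56 (median −0.98), where 35.3% of all probe sets were called lower and 40.1% higher. The largest changes were in Adgrg1, a receptor of collagen III (−3.55, SE 0.12, limma adjusted p 2.89e-14), Lair1, an inhibitory receptor of immune cells (1.93, SE 0.12, limma adjusted p 1.19e-10), Ddr2, a receptor tyrosine kinase for fibrillar collagen (−1.67), and the integrin subunit Itgb1 (−1.51). Lair1 was the one that rose, from 6.16 ± 0.29 at P0 to 7.87 ± 0.04 at P7 (SD, n = 3), in the step in which 9 of 10 microglial markers fell. Of 13 genes of collagen breakdown, 10 fell and 3 rose in the same comparison (median −0.79), and the largest falls were in the metalloproteinase inhibitors Timp2 (−3.45), Timp3 (−3.35) and Reck (−2.95) and in the membrane-bound metalloproteinase Mmp16 (−2.87). Of 18 basement membrane partners, 16 fell and 2 rose (median −1.48). They included Agrn, a heparan sulphate proteoglycan (−4.41, SE 0.10, limma adjusted p 1.43e-16), Pxdn, the peroxidase that crosslinks type IV collagen (−4.31, SE 0.07, limma adjusted p 1.95e-18), Nid1, which links laminin to type IV collagen (−4.13), and Smoc1 (−3.33). The median first-week change of these partners was −1.12, beside −0.24 for the 6 type IV chains and 0.05 for all probe sets.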

How the data were processed

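Expression was measured on 15 Affymetrix arrays of RNA from tagged ribosomes, 3 at each of 5 ages. The authors deposited log2 signals, 1 for each probe set and array. Affymetrix Power Tools is named in the submitters' processing notes. Its algorithm, version, background correction and log base were not given in the sources used here. Base 2 was taken from the range of the values. Precision is limited by the number of arrays. Scan dates and batches are not recorded, so neither can be told apart from age.

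Symbols came from the platform annotation of 2016 (20996 probe sets with 1 symbol, 91 with several, 1005 not listed), and the 43 collagen symbols are the same in RefSeq by Entrez number. Differences were tested, two-sided, with limma 3.58.1 in R 4.3.3 (10 residual degrees of freedom plus 6.5 from the prior), a mean per age, Benjamini-Hochberg adjustment over all 22092 probe sets and a threshold of 0.05. An exact permutation test of 3 against 3 arrays cannot go below 0.1. In simulated P56 and P0 arrays, 10% of 50 shifts of 0.25, 82% of those of 0.5 and 100% of those of 1 were called. There 21892 of the 22092 probe sets were left unshifted, so the adjusted threshold was stricter than in the data. In the data 40.1% of probe sets were called higher and 35.3% lower from P0 to P56. The simulated shares therefore do not give the power of the tests here. Values of every array are given for the 6 largest non-overlapping rises and falls from P0 to P56, the 3 largest of each step, and Col1a1, Col1a2, Col3a1, Col4a1, Col4a2 and Col18a1. Of each list of other genes, up to 4 called genes with the largest change from P0 to P56 are named, and Serpinh1. The members and lists were chosen with earlier results of these data known. Alternatives were a change of at least 1, quantile normalisation, a robust prior with a trend, array weights, array medians set to 0, other probe set rules, leaving out each array, leaving out the dimmest 50% of probe sets, and a replicate block. Setting the olfactory receptor medians equal was added after seeing the data. Figures were drawn with matplotlib 3.10.9.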

Additional observations from a re-analysis of the deposited data

How the results depend on the processing

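The counts of called chains depended most on the scaling and on filters. Under the scalings the shares of all probe sets called moved as well, but little with quantile normalisation from P0 to P7 and from P0 to P56. Only 7 of the 43 chains survived removal of the dimmest 50% of probe sets, and the F-test called 7. From P0 to P56, 3 rose and 3 fell (42.6% and 45.1% of the probe sets left). From P0 to P7 the counts were 1 and 4 (51.6% and 32%). They were 3 and 1 from P21 to P56 (20.8% and 55.4%) and 1 and 1 from P7 to P56 (23% and 54.1%). A change of at least 1 left 1 and 4, 1 and 4, 0 and 0, and 0 and 0 in those comparisons, and 0 in both middle steps. Quantile normalisation gave 8 rises from P0 to P7 (33.5% of all probe sets) and 0 rises and 1 fall from P15 to P21 (9.42% and 8.58%). It gave 2 falls from P21 to P56 (27.5%) and 30 rises from P7 to P56 (29%). Array medians set to 0 gave 11 falls from P0 to P56 (26.3% of all probe sets) and 6 rises from P0 to P7 (38.4%). They gave 3 rises from P7 to P15 (16.2%), 0 rises from P15 to P21 (8.53%) and 0 falls from P21 to P56 (22.3%). From P7 to P56 there were 38 rises and 1 fall (55.6% and 21.8%). Olfactory receptor medians set equal gave 9 rises from P0 to P56 (25.7% of all probe sets) and 2 falls from P15 to P21 (9.07%). They gave 14 rises and 7 falls from P21 to P56 (13.6% and 42.8%) and 5 falls from P7 to P56 (44.5%). Array weights gave 5 rises from P0 to P7 (38.8% of all probe sets). They gave 2 rises and 2 falls from P7 to P15 (16.1% and 19%) and 0 rises from P15 to P21 (10.5%). With array medians set to 0, the median change of all probe sets was 0.41 from P0 to P56, 0.21 from P21 to P56 and 0.27 from P7 to P56, and with olfactory receptors it was −0.12, −0.14 and −0.15.

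Among changes called as deposited or under the alternative, signs turned for Col2a1 (0.35 with quantile normalisation and 0.32 with medians set to 0), Col9a3 (0.32 and 0.31), Col4a5 (0.039), Col5a2 (0.038) and Col4a6 (−0.20 with olfactory receptors) from P0 to P56. From P21 to P56 they turned for Col12a1 (0.23) and Col20a1 (0.021) with medians set to 0 and Col1a1 (0.21) with quantile normalisation, and from P7 to P56 for Col25a1 (0.25) and Col4a5 (0.22) with medians set to 0. Uncalled changes near 0 also turned under these scalings and are not listed. The cause was not tested.

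Leaving out each array in turn gave 17 to 18 rises and 15 to 17 falls from P0 to P56, 2 to 4 and 17 to 21 from P0 to P7, 1 to 2 and 1 to 1 from P7 to P15, 0 to 2 and 0 to 2 from P15 to P21, 14 to 23 and 3 to 6 from P21 to P56 (14 rises without P21 replicate 1), 13 to 19 and 1 to 2 from P7 to P56, and 34 to 39 calls in the F-test. Arrays of the same replicate number did not deviate together on average (mean correlation 0.002 over 30 pairs, from −0.315 to 0.453). Pairs of other numbers ranged from −0.423 to 0.238 (mean −0.001). Such a mean does not exclude pairing between some of the ages. With the replicate block, 17 chains rose and 17 fell from P0 to P56 (39.9% and 35.3% of all probe sets), and the F-test called 38. The counts were 3 and 20 from P0 to P7 (33.5% and 28.4%) and 1 and 1 from P7 to P15 (10.3% and 13.4%). From P15 to P21 they were 1 and 0 (10.3% and 6.89%). They were 21 and 4 from P21 to P56 (22.1% and 34.1%) and 15 and 2 from P7 to P56 (25.1% and 34.1%).

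Most chains have signals below the median probe set. In simulated arrays 82% of shifts of 0.5 but only 10% of shifts of 0.25 were called. Nearly all probe sets were unshifted there, so the adjusted threshold was stricter than in the data. In the data Col28a1 was called at 0.24 from P0 to P56. The simulated shares thus do not give the power of these tests, and changes of that smaller size may still go uncalled.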
